A study of Bos taurus with 2 samples.

Results

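Heat shock proteins and chaperones are described here in bovine seminiferous tubules, where sperm are made, at 3 months and at 9 months of age. The genes were chosen by their symbols, as all those starting with HSPA, HSPB, HSPD, HSPE, HSPH, HSP90 or DNAJ, the numbered CCT subunits 2 to 8, and TCP1, CLGN, CANX, CALR and CALR3. This gave 86 of the 24616 listed Ensembl genes, under 85 symbols, since HSP90AB1 was listed under 2 identifiers. The rule also took HSPBAP1 and HSPBP1, whose symbols start with HSPB although they are not small heat shock proteins, and they are counted apart. HSPA2, a testis HSP70, and HSPA1B, a close copy of HSPA1A, were not analysed here under those symbols. HSPA5 was listed as GRP78, which the rule does not take, and its values are given apart.

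Chaperones help other proteins to fold, to assemble and to reach their place, and heat shock proteins are those first known from cells under heat stress. HSP70 proteins hold unfolded stretches in a cycle driven by ATP, J-domain proteins (the DNAJ genes) bring them their clients and start that cycle, and HSP110 proteins reset it. HSP90 acts later on near-folded clients such as kinases and steroid receptors, the HSP60 and TRiC chaperonins fold proteins inside a closed ring, small heat shock proteins keep clients from clumping, and the calnexin and calreticulin lectins fold glycoproteins in the endoplasmic reticulum (ER). Male germ cells make their own versions of many of these proteins from meiosis onwards, and calmegin (CLGN) and calsperin (CALR3) are known to fold sperm surface proteins needed to reach and bind the egg.

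Each age was represented by 1 library, made from total RNA of flash-frozen tubule pieces. The labels give no breed or treatment and do not say how many animals were sampled at each age. The libraries held 37600534 counts at 3 months and 29782234 at 9 months. Each value below therefore compares these libraries and has no replicate check. Levels are in RPKM, counts divided by gene length and by a library size scaled with TMM, the trimmed mean of the genes' log ratios. Folds are followed in brackets by their 95% exact interval, which covers counting error only. A gene was measured at 10 or more counts over both libraries. It was called higher or lower in the 9-month library where the fold reached 2 and its interval did not hold 1. All 12 markers of germ cells from meiosis to spermatids were higher, with a summed level of 14.0 RPKM at 3 months, where ODF1 was at 0 counts, and 4765 at 9 months. Of 8 Sertoli cell markers 5 were lower, 1 was higher and 2 lay within 2-fold, with summed levels of 3120 and 501 RPKM and none at 0. The 4 Leydig cell markers found, of cells that lie outside the tubules, were all lower, with none at 0 and summed levels of 13144 and 2930 RPKM. INSL3 alone stood at 8032 and 2565 RPKM, while CYP11A1 stood at 518 and 21.2 RPKM. Cell markers thus differed widely between the libraries. In bulk RNA, fewer cells of a type, less RNA per cell and a larger share of RNA from other cells cannot be told apart.

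The summed level of the chaperone genes was 9007 RPKM at 3 months and 7929 at 9 months under TMM, while that of all measured genes was 2.06-fold lower at 9 months. Their raw counts were 649929 and 600269. By share of all counts, in libraries of different size, the order was the other way. Their share of all counts was 1.73% at 3 months and 2.02% at 9 months, with exact binomial 95% limits of 1.72 to 1.73 and of 2.01 to 2.02. Of the 86 genes 85 were measured, and HSPB3, with 6 and 1 counts, was not. Among the 85, 23 were higher in the 9-month library, 14 were lower and 48 lay within 2-fold. Over all 18025 measured genes 27.7% were called higher and 23.2% lower, so the 27.1% of chaperone genes that were higher lay near the background, and the 16.5% that were lower lay below it. At the 4-fold level 16 were higher, or 18.8% against 17.5% of all genes, and 2 were lower, or 2.35% against 8.79%. The median log2 ratio of 9 to 3 months was 0.24, beside 0.00 over all measured genes.

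Of the 16 that were at least 4-fold higher, 12 belonged to a list of germ-cell-associated chaperones drawn from background knowledge with earlier results of these libraries known, so the list's direction is not independent evidence. The 12 germ cell markers, summed to 14.0 and 4765 RPKM, were higher as well, and their part in these values was not tested. Without the 12 germ-cell-associated chaperones 11 of 73 were higher and 14 lower, and the median log2 ratio was 0.03. Those shares were 15.1% and 19.2%, against 27.7% and 23.2% of all measured genes. All 12 left out were called higher, so the smaller number of higher genes followed from the list. For 7 genes the minimum was reached through the 9-month library alone (HSPB9, DNAJB3, DNAJB7, DNAJB8, DNAJB13, DNAJC5B and CCT8L2). The filter thus favoured higher ratios for these genes. HSPB7, which lay within 2-fold, was the only gene that reached the minimum through the 3-month library alone.

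The scaling between libraries moved the balance of calls. Reference genes here are 9 genes often used to scale expression, such as PPIA and TBP, taken by their summed counts or by their median ratio (the median reference gene). The higher genes made up 62.2% of the called chaperone genes with TMM, 85.0% with plain library totals, 70.3% with the median reference gene, 55.3% with upper-quartile scaling and 39.1% with the summed counts of the reference genes. The same scalings moved the median log2 ratio of all measured genes to 0.46, 0.13, -0.11 and -0.55. Of the 23 higher genes 18 were higher under all 7 scalings tried, namely the 12 germ-cell-associated genes with DNAJA4, DNAJB1, DNAJC21, DNAJC27, DNAJC28 and CCT8L2. Of the 14 lower genes 6 were lower under all of them, namely HSP90B1, HSPE1, HSPB1, HSPB2, HSPB6 and DNAJC12. For 25 of the 85 the sign of the ratio changed under some scaling, and all 25 lay within 2-fold with TMM.

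**Figure D1:**
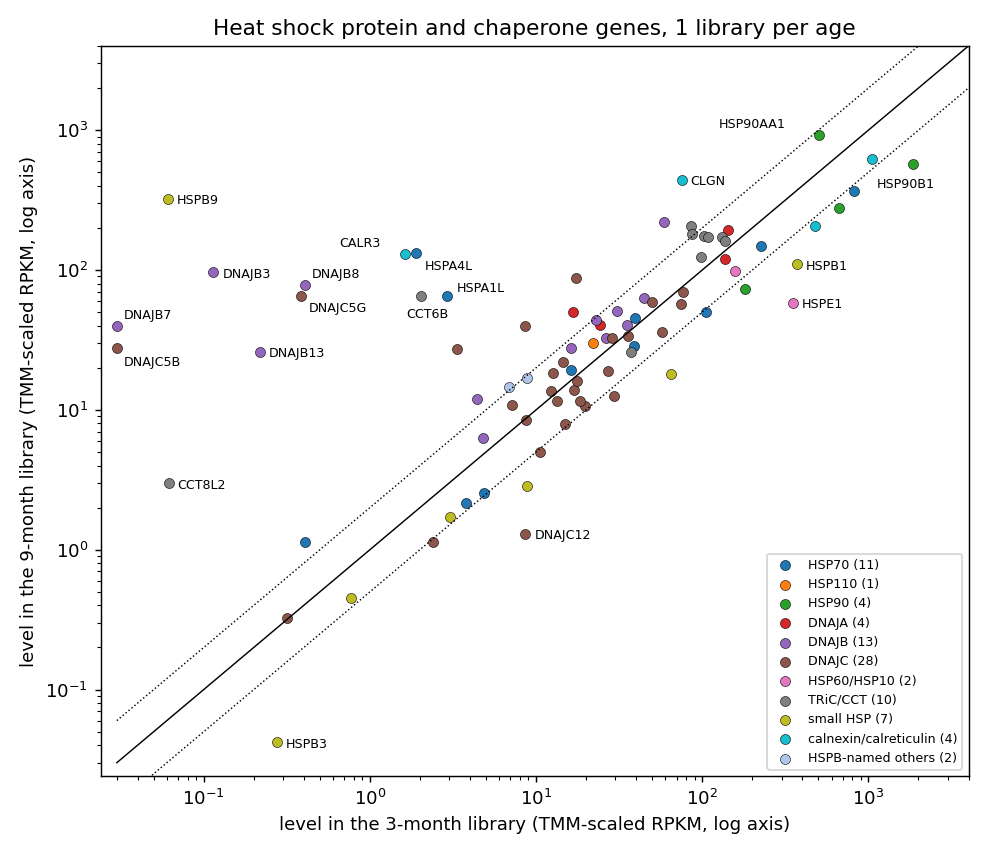
Level of each chaperone gene in the 3-month library (x axis) and the 9-month library (y axis), in TMM-scaled RPKM on log axes, with 1 point per gene coloured by family; the solid line marks equal levels, the dotted lines 2-fold differences, and genes at 0 counts (DNAJB7 and DNAJC5B) are drawn at the left edge. Most points lie near the line of equal levels, while a separate group with HSPB9, DNAJB3, DNAJC5G, CALR3 and HSPA4L lies far above it at 3-month levels under 3 RPKM.

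The most abundant genes of these libraries were more often lower than higher. Among genes with a mean of at least 100 RPKM over both libraries, 30.4% of 23 chaperone genes were lower in the 9-month library and 21.7% were higher. Over all 937 genes at that level 55.5% were lower and 11.5% higher, with a median log2 ratio of -1.20 against 0.24 for the chaperones. A gene could reach that mean through 1 library alone, so the cut is tied to the ratio. The 5 higher chaperone genes (HSPB9, CLGN, DNAJB1, CCT2 and CCT5) were all under 100 RPKM at 3 months. Among the lower ones, HSPE1 and HSP90AB1 under ENSBTAG00000047699 were under 100 RPKM at 9 months. These shares are descriptions, since 1 library per age allows no test. The 5 most abundant chaperone genes made up 54.4% of the group's summed level at 3 months and 36.9% at 9 months. HSP90B1 led the group at 3 months and HSP90AA1 at 9 months.

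HSP70 genes were led by HSPA8 (ENSBTAG00000013162), the constitutive HSP70 of the cytosol. HSPA8 had 58874 counts at 3 months and 29038 at 9 months, levels of 817 and 367 RPKM, and was 2.22-fold lower [2.19 to 2.26]. HSPA1A (ENSBTAG00000025441), the HSP70 that stress induces, stood at 105 and 50.1 RPKM and was 2.09-fold lower [2.01 to 2.18]. Both calls were lost with plain library totals, where the log2 ratios were -0.68 and -0.60, and that of HSPA1A also with the median reference gene. Reads of HSPA1A may be shared with its close copy, so its value is uncertain. HSPA9, the HSP70 of mitochondria, stood at 226 and 149 RPKM, and HSPA13, an ER-linked HSP70, at 39.0 and 28.8 RPKM, both within 2-fold.

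Testis members of the HSP70 family had low levels at 3 months and high ones at 9 months. HSPA4L (ENSBTAG00000015692), an HSP110-type partner of HSP70 known from testis, had 158 counts at 3 months and 12031 at 9 months. Its level went from 1.89 to 131 RPKM, and it was 69.4-fold higher [59.3 to 81.7]. HSPA1L (ENSBTAG00000025442), an HSP70 known from spermatids, had 217 and 5316 counts, stood at 2.92 and 65.3 RPKM and was 22.3-fold higher [19.5 to 25.7]. The related genes with broad expression stayed close to even: HSPA4 at 39.4 and 45.2 RPKM, and HSPH1, the HSP110 gene proper, at 21.9 and 30.0 RPKM, a ratio of 1.37 [1.30 to 1.44]. The signs of both turned with the summed reference genes, to log2 ratios of -0.36 for HSPA4 and -0.11 for HSPH1.

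The other HSP70 genes were weakly expressed. HSPA6, a stress-induced HSP70, had only 25 and 77 counts, or 0.405 and 1.14 RPKM, and was 2.81-fold higher [1.77 to 4.60], a call lost with the summed reference genes. HSPA12A and HSPA12B, distant members of which HSPA12B is known from endothelial cells, stood at 3.81 and 2.16 RPKM and at 4.89 and 2.55 RPKM. HSPA12A overlaps ENO4 in assembly ARS-UCD2.0, which had 152 and 600 counts, so the HSPA12A value is uncertain. Of 3 endothelial markers 2 were lower and 1 was higher, with none at 0 and summed levels of 18.4 and 13.1 RPKM, and their part in the HSPA12B value was not tested. HSPA14, which acts at the ribosome, stood at 16.1 and 19.4 RPKM. Of the 11 HSP70 genes 3 were called higher, 2 were called lower and 6 were neither. The 27.3% higher and 18.2% lower compare with 27.7% and 23.2% of all measured genes. The family's median log2 ratio of -0.44 turned to 0.03 with plain library totals. GRP78 (ENSBTAG00000007662), the main HSP70 of the ER and outside the symbol rule, stood at 637 and 371 RPKM and lay within 2-fold, 1.72-fold lower [1.69 to 1.74].

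The order of the HSP90 genes differed between the libraries. HSP90AA1 (ENSBTAG00000006270), the inducible cytosolic form, rested on 48074 counts at 3 months and 96841 at 9 months. It stood at 501 and 919 RPKM, 1.84-fold higher [1.82 to 1.86], and ranked 298th and 28th among all listed genes by level. HSP90AB1, the constitutive form, stood at 665 and 278 RPKM under ENSBTAG00000000778 and at 180 and 73.1 RPKM under ENSBTAG00000047699. Both were lower, with log2 ratios of -1.26 and -1.30, and reads may be shared between them. Their summed counts of 60747 and 27680 were 2.41-fold lower [2.37 to 2.44]. Neither was called lower with plain library totals, under which HSP90AA1 was called higher, with a log2 ratio of 1.35, as it was with the median reference gene. Within each library, which no scaling affects, the level of HSP90AA1 was 0.593 of the summed level of HSP90AB1 at 3 months and 2.62 times that sum at 9 months.

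HSP90B1 (ENSBTAG00000003362), the HSP90 of the ER also called GRP94, was the most abundant chaperone gene of the 3-month library. It had 165768 and 55814 counts, stood at 1863 and 572 RPKM and was 3.26-fold lower [3.23 to 3.29]. It was lower under every scaling, with log2 ratios from -2.27 to -1.23. As a family the HSP90 genes took 35.6% of the summed chaperone level at 3 months and 23.2% at 9 months. The Leydig and Sertoli markers, summed to 13144 and 2930 RPKM and to 3120 and 501 RPKM, had lower sums as well, with all 4 Leydig markers and 5 of 8 Sertoli markers lower, and their part in the HSP90B1 value was not tested.

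J-domain proteins numbered 45, of which 12 were higher, 4 lower and 29 neither. The 26.7% that were higher lay near the 27.7% of all measured genes, and 8.89% were lower against 23.2%. The 4 DNAJA genes, general partners of HSP70, were even or slightly higher. DNAJA1 stood at 142 and 193 RPKM and DNAJA2 at 136 and 120 RPKM, with signs that changed under other scalings. DNAJA3, a mitochondrial form, stood at 24.3 and 40.5 RPKM. DNAJA4 was the exception, at 16.8 and 49.7 RPKM and 2.96-fold higher [2.72 to 3.22].

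None of the 13 DNAJB genes was called lower under any scaling, and 4 of them were almost silent in the 3-month library. With TMM 46.2% of the family were called higher and 0% lower, against 27.7% and 23.2% of all measured genes. DNAJB3 (ENSBTAG00000018756), a J-protein known from sperm, had 4 counts at 3 months and 3691 at 9 months, with levels of 0.114 and 96.2 RPKM, an 841-fold difference [328 to 3089]. It overlaps UGT1A6 in assembly ARS-UCD2.0, a gene not analysed here, so its counts are uncertain. DNAJB7 had 0 and 1483 counts and was at least 451-fold higher, computed against a floor of 3 counts per library, with an exact lower limit of 366. It overlaps XPNPEP3 in assembly ARS-UCD2.0, which had 363 and 707 counts, so strandless counting could add reads of either gene to the other. DNAJB8 (ENSBTAG00000006179), known in testis and as a suppressor of protein clumps, had 9 and 1907 counts and was 193-fold higher [102 to 423]. DNAJB13, a part of the radial spokes of the sperm tail, had 8 and 1048 counts, stood at 0.217 and 25.9 RPKM and was 119-fold higher [60.4 to 277].

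The widely expressed DNAJB genes differed far less. DNAJB1 (ENSBTAG00000016874), the main partner of cytosolic HSP70 in the heat shock response, stood at 59.1 and 221 RPKM and was 3.73-fold higher [3.61 to 3.86]. DNAJB5, a related gene, stood at 4.41 and 11.9 RPKM and was 2.70-fold higher [2.29 to 3.19], a call lost with the summed reference genes. The other 7 lay within 2-fold. They included the ER partners DNAJB9 (22.9 and 44.2 RPKM), DNAJB11 (30.6 and 51.2 RPKM) and DNAJB12 (35.5 and 40.4 RPKM), and the cytosolic DNAJB6 (44.3 and 63.2 RPKM). DNAJB2, DNAJB4 and DNAJB14 stood at 16.1 and 27.7 RPKM, at 26.5 and 32.4 RPKM and at 4.78 and 6.28 RPKM. DNAJB2, DNAJB9 and DNAJB11 were called higher with plain library totals, and DNAJB9 also with the median reference gene. Of these, DNAJB4, DNAJB6, DNAJB12 and DNAJB14 changed sign with the summed reference genes. The family's summed level was 245 RPKM at 3 months and 738 at 9 months, or 244 and 498 without the 4 germ-cell-associated genes.

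The 28 DNAJC genes, which share only the J-domain and serve many separate tasks, were called higher in 5 cases, lower in 4 and neither in 19. The higher and lower calls were 17.9% and 14.3% of the family, against 27.7% and 23.2% of all measured genes. The family's median log2 ratio was -0.10 and turned to 0.37 with plain library totals. DNAJC5B, a testis relative of the cysteine string protein of secretory vesicles, had 0 and 1138 counts and was at least 346-fold higher against the same floor, with an exact lower limit of 281. DNAJC5G, a further testis relative, had 10 and 1847 counts, stood at 0.387 and 65.2 RPKM and was 168-fold higher [91.3 to 352]. The gene of the cysteine string protein itself, DNAJC5, stood at 17.6 and 16.1 RPKM with a sign that changed between scalings. DNAJC5G overlaps SLC30A3 in assembly ARS-UCD2.0, which had 22 and 1645 counts and a log2 ratio of 5.97 beside 7.15, so the reads of these 2 genes may be mixed.

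Other DNAJC genes were higher from a base that was already expressed. DNAJC27, which joins a J-domain to a Rab-like GTPase, stood at 3.35 and 27.0 RPKM and was 8.07-fold higher [7.36 to 8.87]. DNAJC21, which acts in the making of ribosomes, stood at 17.5 and 87.2 RPKM and was 4.99-fold higher [4.69 to 5.32]. DNAJC28 stood at 8.64 and 39.7 RPKM and was 4.60-fold higher [4.08 to 5.20].

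The lower DNAJC genes were of modest level. DNAJC12, a helper of the aromatic amino acid hydroxylases, had 357 and 59 counts, stood at 8.61 and 1.30 RPKM and was 6.64-fold lower [5.03 to 8.90]. It was 1 of the 2 chaperone genes that were at least 4-fold lower, the other being HSPE1. DNAJC19, of the import motor of mitochondria, stood at 29.3 and 12.6 RPKM and was 2.32-fold lower [1.98 to 2.72]. DNAJC25 and DNAJC6, the clathrin uncoating factor auxilin, were 2.12-fold [1.82 to 2.48] and 2.10-fold [1.75 to 2.53] lower. The calls of DNAJC19, DNAJC25 and DNAJC6 were lost with plain library totals, where their log2 ratios were -0.74, -0.61 and -0.60, and the latter 2 also with the median reference gene. Of the 19 genes within 2-fold, DNAJC10, an ER reductase, had the highest level in each library with 77.0 and 69.6 RPKM, and DNAJC22 the lowest with 0.318 and 0.326 RPKM. DNAJC7, which works with both HSP70 and HSP90, stood at 74.6 and 57.5 RPKM, and DNAJC8, a splicing protein, at 57.3 and 35.8 RPKM. DNAJC2, which acts at the ribosome, stood at 50.1 and 58.9 RPKM, and DNAJC3, an ER partner of GRP78, at 35.6 and 33.8 RPKM. The log2 ratios of the 19 ran from -0.90 for DNAJC17 to 0.60 for DNAJC30.

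**Figure D2:**
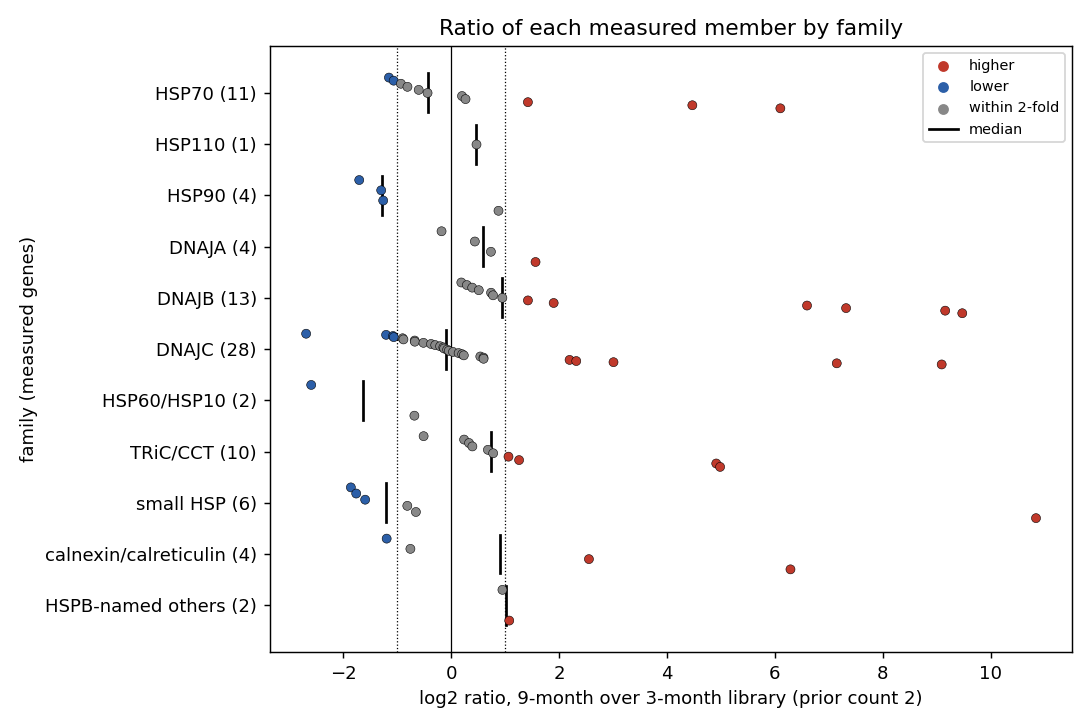
Log2 ratio of the 9-month to the 3-month library (x axis, prior count 2) for the 85 measured genes, by family (y axis, number of measured genes in brackets); points are genes, red where called higher, blue where called lower and grey within 2-fold, and vertical bars are family medians. Ratios above 4 occur in the HSP70, DNAJB, DNAJC, TRiC, small HSP and calnexin and calreticulin families, beside relatives near or below 0.

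The chaperonin genes of mitochondria had ratios below 0 under TMM, and most of those of the cytosol above 0. HSPD1 (ENSBTAG00000012586), the ring-forming HSP60, stood at 157 and 97.7 RPKM and lay within 2-fold, 1.60-fold lower [1.56 to 1.65]. HSPE1 (ENSBTAG00000012589), the HSP10 lid of that ring, had 5359 and 972 counts, stood at 351 and 58.0 RPKM and was 6.05-fold lower [5.65 to 6.48]. The HSPE1 level was thus 2.24 times that of HSPD1 in the 3-month library and 0.594 times in the 9-month library, although the proteins work together and the genes are neighbours in assembly ARS-UCD2.0. HSPE1 is short, with a gene length of 478 bases in the tables, against 2798 for HSPD1. Among all 367 genes under 600 bases with at least 50 RPKM in the 3-month library, 60.5% were lower and the median log2 ratio was -1.37, beside -2.59 for HSPE1. That minimum level favoured lower ratios, since it was set on the 3-month library alone. With it, the classes of longer genes had medians of -1.16, -0.89 and -0.95, and 56.4%, 46.1% and 47.9% were lower. Without it, the 1484 measured genes under 600 bases had a median of -0.46, and 33.2% were lower. The longer classes then had medians of -0.04, -0.03 and 0.14. The part of gene length in the HSPE1 value was not tested.

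TRiC, the cytosolic chaperonin that folds actin and tubulin, is a double ring of different subunits. With TMM, TCP1 and the CCT2, CCT3, CCT4, CCT5, CCT7 and CCT8 genes all had positive log2 ratios, from 0.24 to 1.26, of which CCT2 and CCT5 were called higher. Of these 7 genes 28.6% were thus higher, near the 27.7% of all measured genes, and 0% were lower, against 23.2%. The ratios of CCT4, CCT7 and CCT8 turned negative with the summed reference genes. CCT2 stood at 86.1 and 206 RPKM and was 2.39-fold higher [2.32 to 2.47], and CCT5 stood at 86.2 and 180 RPKM and was 2.09-fold higher [2.02 to 2.15]. Both calls were lost with the summed reference genes, and that of CCT5 also with upper-quartile scaling. CCT7 had the smallest difference of the 7, at 137 and 162 RPKM, a ratio of 1.18 [1.15 to 1.22]. TCP1 stood at 108 and 174 RPKM. It overlaps ACAT2 in assembly ARS-UCD2.0, which had 6302 and 1191 counts, so its value is uncertain. The 7 genes lay close together in each library, with the highest 1.59 times the lowest at 3 months and 1.66 times at 9 months.

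The eighth subunit is made from either of 2 genes. CCT6A (ENSBTAG00000008184), the general form, had 2014 and 1550 counts, stood at 37.2 and 26.1 RPKM and was 1.42-fold lower [1.33 to 1.52], within 2-fold. CCT6B (ENSBTAG00000020338), the testis form, had 117 and 4124 counts, stood at 2.03 and 65.2 RPKM and was 32.1-fold higher [26.7 to 39.0]. CCT6B overlaps ZNF830 in assembly ARS-UCD2.0, which had 819 and 672 counts, so its value is uncertain, mainly at 3 months. The summed level of CCT6A and CCT6B was 38.5% of the median of the other 7 subunits at 3 months and 52.6% at 9 months. CCT8L2, a chaperonin-like gene, had 3 and 160 counts, a ratio of 48.6 [16.3 to 238], and stayed at 2.99 RPKM in the 9-month library.

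**Figure D3:**
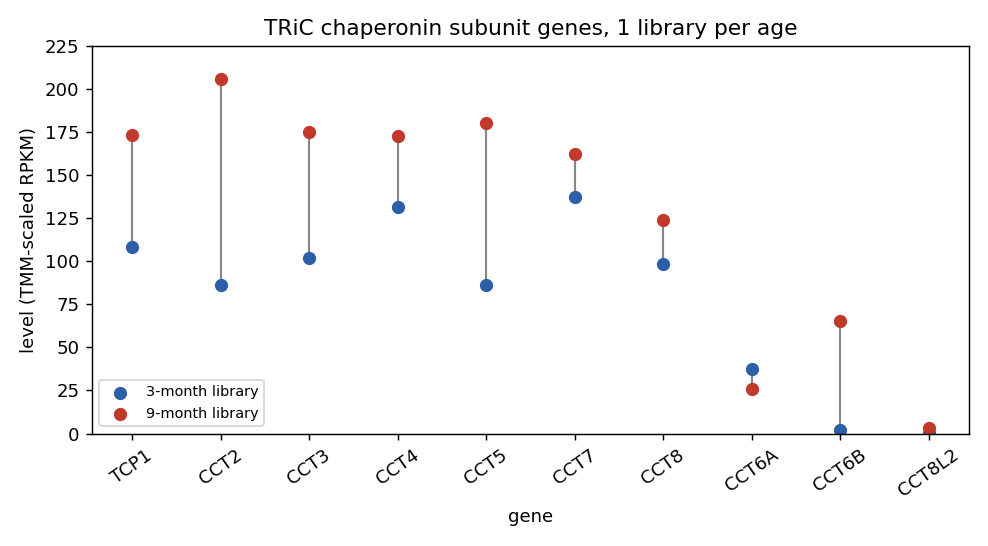
Level of the TRiC subunit genes and CCT8L2 (x axis) in TMM-scaled RPKM (y axis, from 0), with the 3-month library in blue and the 9-month library in red. The 7 subunits on the left lie between 86.1 and 137 RPKM at 3 months and between 124 and 206 at 9 months, while CCT6A and CCT6B change order.

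Of the 6 measured small heat shock protein genes 3 were lower, 2 lay within 2-fold and HSPB9 was higher. The 50% lower and 16.7% higher compare with 23.2% and 27.7% of all measured genes. HSPB1 (ENSBTAG00000011969), or HSP27, which binds unfolding proteins and actin, had 10139 and 3283 counts, stood at 371 and 110 RPKM and was 3.39-fold lower [3.26 to 3.52]. HSPB6, or HSP20, a protein of smooth muscle, stood at 65.1 and 17.9 RPKM and was 3.63-fold lower [3.37 to 3.92]. HSPB2, known from muscle, had 235 and 84 counts, stood at 8.82 and 2.87 RPKM and was 3.07-fold lower [2.38 to 3.99]. All 3 were lower under every scaling. Of 4 smooth muscle and peritubular markers 2 were higher, 1 was lower and 1 lay within 2-fold, with summed levels of 79.3 and 177 RPKM and none at 0, and their part in these values was not tested.

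HSPB8, which works with BAG3, stood at 3.02 and 1.71 RPKM within 2-fold, and HSPB7, known from heart, had only 14 and 9 counts. HSPB9 (ENSBTAG00000024979), known from testis, went the other way. It had 1 count at 3 months and 5834 counts at 9 months, a ratio of 5318 [954 to 210095], and the highest log2 ratio of all chaperone genes at 10.8. At 324 RPKM it was the most abundant small heat shock protein gene of the 9-month library and ranked 179th of all listed genes. Through HSPB9 alone the summed level of the 6 measured genes was even, at 449 and 456 RPKM, while the other 5 summed to 449 and 133 RPKM. Of the pair grouped apart, HSPBAP1, which binds HSP27, was 2.11-fold higher [1.88 to 2.38] and HSPBP1, an exchange factor for HSP70, was within 2-fold at 8.76 and 17.0 RPKM. HSPBAP1 overlaps PARP14 in assembly ARS-UCD2.0, which had 1880 and 596 counts, and its call was lost with upper-quartile scaling and with the summed reference genes.

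The calnexin and calreticulin family held both general and germ cell lectins. CALR (ENSBTAG00000015114), or calreticulin, stood at 1054 and 624 RPKM and was 1.69-fold lower [1.67 to 1.71], within 2-fold. CANX (ENSBTAG00000048107), or calnexin, stood at 475 and 208 RPKM and was 2.29-fold lower [2.26 to 2.32], a call lost with plain library totals at a log2 ratio of -0.73. CLGN (ENSBTAG00000001580), or calmegin, the germ cell relative of calnexin, had 5775 and 37185 counts, stood at 75.1 and 441 RPKM and was 5.87-fold higher [5.71 to 6.04]. It was the only germ-cell-associated gene with more than 3 RPKM in the 3-month library. CALR3 (ENSBTAG00000033222), or calsperin, the germ cell relative of calreticulin, had 80 and 7016 counts, stood at 1.62 and 130 RPKM and was 79.9-fold higher [64.1 to 101].

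Within each library the share of a germ cell gene in a pair of relatives does not depend on the scaling. Per gene length, CLGN made up 13.6% of the summed level of CLGN and CANX at 3 months (13.3 to 14.0) and 68.0% at 9 months (67.7 to 68.3). CALR3 made up 0.153% of its pair with CALR (0.122 to 0.191) and 17.2% (16.8 to 17.5), so that CALR remained the larger of that pair in both libraries. CCT6B went from 5.17% (4.29 to 6.16) to 71.4% (70.2 to 72.6) of its pair with CCT6A. HSPA4L went from 4.59% (3.92 to 5.33) to 74.4% (73.8 to 74.9) of its pair with HSPA4. HSPA1L went from 2.71% (2.36 to 3.09) to 56.6% (55.5 to 57.6) of its pair with HSPA1A. In 4 of the 5 pairs the germ cell gene was thus the smaller part at 3 months and the larger at 9 months. The germ cell genes and pairs were chosen with results of these libraries known, so this count is not independent evidence. The HSPA1L share is uncertain, since reads of HSPA1A may be shared with its close copy. That of CCT6B is uncertain too, since CCT6B overlaps ZNF830. The 12 germ-cell-associated genes together made up 0.941% of the summed chaperone level at 3 months and 18.8% at 9 months.

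**Figure D4:**
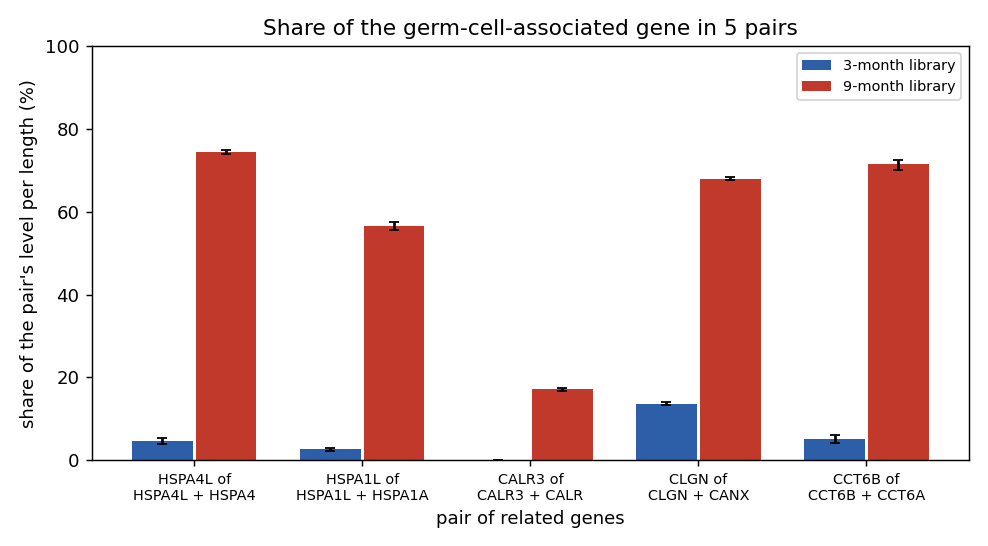
Share of the germ-cell-associated gene in the summed level per gene length of 5 pairs of related genes (y axis, percent, from 0), with the 3-month library in blue and the 9-month library in red; error bars are 95% exact binomial intervals, which cover counting error only. All 5 shares are larger in the 9-month library, and only that of CALR3 stays under 50%.

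Grouped by place in the cell, 14 general ER chaperones were found under the listed symbols, of which 3 (HSP90B1, CANX and DNAJC25) were lower and none was higher under TMM. The 21.4% that were lower lay near the 23.2% of all measured genes. With plain library totals 3 were higher and 1 was lower, and their median log2 ratio of -0.22 turned to 0.25. Their summed level was 3692 RPKM at 3 months and 1718 at 9 months, a ratio of 0.465 beside 0.486 for the summed level of all measured genes. Most of it was HSP90B1, CALR and CANX, while DNAJB9, DNAJB11, DNAJB12, DNAJB14 and DNAJC16 had positive ratios under TMM. Among the 9 mitochondrial genes DNAJC28 was higher, HSPE1 and DNAJC19 were lower, and the median was -0.60. These shares were 11.1% and 22.2%, against 27.7% and 23.2% of all measured genes. The calls became 3 higher and 1 lower with plain library totals, and 1 higher and 6 lower with the summed reference genes. A list of 9 cytosolic genes of the heat shock response, in which HSPA8 stands although it is mainly constitutive, was mixed under TMM, with DNAJB1 and HSPA6 higher, HSPA8, HSPA1A and HSPB1 lower, and 4 others called neither way. The shares were 22.2% higher and 33.3% lower, against 27.7% and 23.2% of all measured genes. The list's median of 0.44 turned to -0.13 with the summed reference genes.

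Partners and regulators of the chaperones also included genes near even and genes known from testis that were far higher. Of 6 genes linked to heat shock factors, the transcription factors that switch on these genes, 2 were higher. This was 33.3%, against 27.7% of all measured genes. HSF5, known from testis, stood at 1.17 and 49.5 RPKM and was 42.4-fold higher, and HSF2BP, a meiotic recombination protein first found as a binder of HSF2, was 6.93-fold higher. HSF1, the main factor of the heat shock response, stood at 33.2 and 65.2 RPKM, a ratio of 1.96 [1.87 to 2.07] just under the 2-fold limit. Of the 6 genes, 3 were higher with the median of ratios and with the median reference gene, and 4 with plain library totals. Of 27 co-chaperones of HSP70 and HSP90, 5 were called higher and 1 lower, so that the 18.5% that were higher lay below the 27.7% of all measured genes. FKBP6, a meiotic co-chaperone of HSP90, stood at 8.29 and 199 RPKM, 24.0-fold higher, and BAG5, an exchange factor for HSP70, at 10.3 and 120 RPKM, 11.6-fold higher. BAG6, BAG4 and FKBP4 were 3.72-fold, 3.64-fold and 3.13-fold higher. The list's median log2 ratio of 0.14 turned to -0.40 with the summed reference genes, where 5 were higher and 6 lower.

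Most helpers of TRiC were near even or slightly lower under TMM. Of 16 measured genes of prefoldin, which hands clients to TRiC, and of tubulin folding, 13 were called neither way, and the median log2 ratio was -0.54. The 1 higher gene was PDCL2, a phosducin-like protein known from the testis, with 8 and 2959 counts and a 337-fold difference. PDCL3 and the tubulin cofactor TBCE were lower, with log2 ratios of -1.73 and -1.40. The shares were 6.25% higher and 12.5% lower, against 27.7% and 23.2% of all measured genes. With plain library totals the median was -0.07, with 2 higher and 1 lower. It was -1.10 with the summed reference genes, with 1 higher and 8 lower. Of 27 further ER folding and stress genes 10 were called lower and 6 higher, and the list's median was -0.66. The shares of 37.0% lower and 22.2% higher compare with 23.2% and 27.7% of all measured genes. The balance turned to 5 lower and 7 higher with plain library totals and was 15 lower and 3 higher with the summed reference genes. PDIA3, which works with calnexin and calreticulin, stood at 647 and 292 RPKM. P4HB, a major disulfide isomerase, stood at 361 and 130 RPKM. PDIA2, with 88 and 2 counts, was 48.3-fold lower [13.0 to 405], the only gene of this list called at least 4-fold lower. PDILT, the testis isomerase that works with calmegin, had 2 and 2107 counts, a ratio of 960 [266 to 7935], and HYOU1, an ER exchange factor, stood at 43.9 and 108 RPKM. Of 13 mitochondrial helpers 2 were called higher and 1 lower, or 15.4% and 7.69%, against 27.7% and 23.2% of all measured genes. CLPB, a protein of the space between the mitochondrial membranes, was 8.68-fold higher at 6.26 and 54.3 RPKM.

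**Figure D5:**
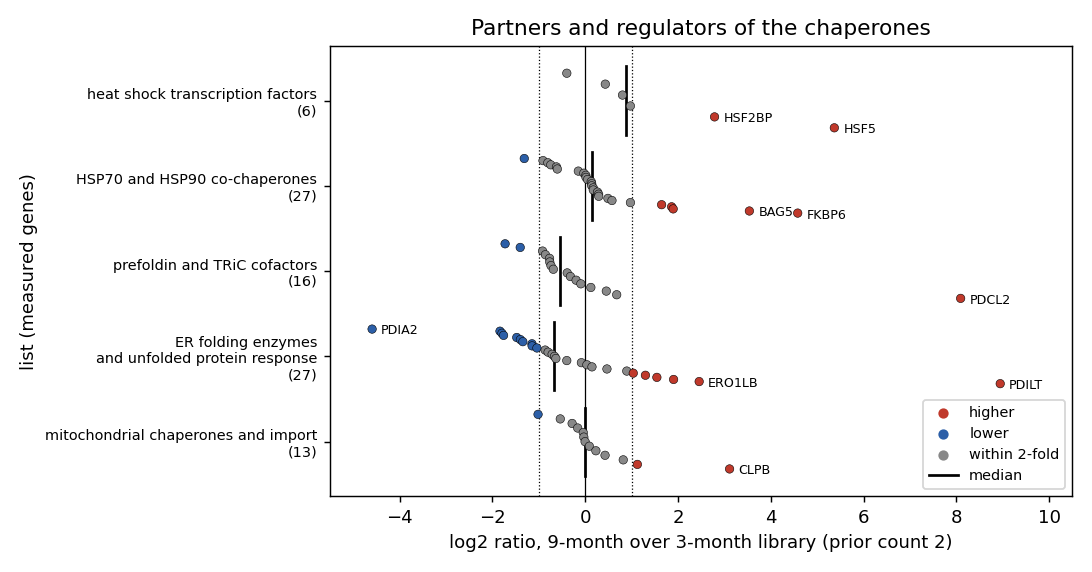
Log2 ratio of the 9-month to the 3-month library (x axis, prior count 2) for genes that work with the chaperones or control them, by list (y axis, number of measured genes in brackets); red points were called higher, blue points lower and grey points lay within 2-fold, and vertical bars are list medians. The medians lie between -0.66 and 0.89, while PDILT, PDCL2, HSF5 and FKBP6 have log2 ratios of 8.94, 8.09, 5.37 and 4.58. PDIA2 lies far below 0, at -4.59.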

How the data were processed

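RNA-seq was analysed from 1 library of tubule at 3 months and 1 at 9 months. The tools named in the submitters' processing notes are Trimmomatic 0.33 and STAR 2.4.0, and the build there is UMD3.1. How reads were counted, with what strand setting, and how reads with several alignments were handled is not given in the sources used here. The deposited tables have no header, so units were worked out from the values. They hold raw counts per Ensembl gene, deposited without normalization, the gene length, and RPKM, which equal that count over the length and the library total (largest difference 0.000496%). The deposited RPKM were used for nothing else.

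The counts were scaled by TMM over all listed genes in edgeR 4.0.16 under R 4.3.3, with factors of 0.850 and 1.18, and levels are RPKM on those sizes. Log2 ratios carry a prior count of 2. Intervals of folds are conditional binomial (Clopper-Pearson), and a floor of 3 counts per library, 0.0939 and 0.0856 CPM, bounds folds against 0. Both cover counting error alone, and PCR copies are not independent molecules. With 1 library per age there is no test and no p-value. Figures and intervals used Python 3.11.15, scipy 1.17.1 and matplotlib 3.10.9.

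The genes, lists and rules were chosen with earlier results of these data known. Named genes are, in each family, those with the largest and smallest log2 ratios among genes of at least 50 counts in the higher library, the most abundant, and a fixed set of well-known members. Other named genes were chosen after their values were seen. The listed symbols HSPA2, HSPA1B, HSPA5, HSD3B1, PDIA4, ERO1A and ERO1B matched no gene and were not used here. Overlaps and synonyms are from RefSeq assembly ARS-UCD2.0, in which all 85 symbols matched, and no coordinates are printed since the builds differ.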

Additional observations from a re-analysis of the deposited data

How the results depend on the processing

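With plain library totals 6 chaperone genes were lower and the median log2 ratio was 0.71. With the summed counts of 9 reference gene symbols 28 were lower, 6 at least 4-fold, and the median reversed to -0.32. The median ratio of the same genes, added after the data were seen, gave a median of 0.36. Upper-quartile scaling gave a median of 0.13. Leaving out the germ-cell-associated genes, also added later, gave 11 higher, 4 of them at least 4-fold, and a median log2 ratio of 0.034. TMM over measured genes alone, the median of ratios, a minimum of 1 or 50 counts, a prior count of 10 and leaving out HSPBAP1 and HSPBP1 kept the counts within 1.5 times and the median within 0.1. Without the length correction the share of HSPA4L in its pair was 2.53% at 3 months and 61.1% at 9 months, that of HSPA1L 3.25% and 61.1%, and that of CLGN 9.13% and 57.5%. The shares of CALR3 and CCT6B at 9 months were 14.3% and 72.7%. The pairs of HSPA4L and HSPA1L were added after the data were seen, because the planned pair of HSPA2 with HSPA8 was not run. Depth limits the folds of genes at 0 to 10 counts in the 3-month library. With a prior count of 10 the log2 ratios of HSPB9, DNAJB3 and DNAJB13 were 8.98, 7.96 and 5.78. No replicate could be left out.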

Other observations

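Spermatogonial and leukocyte markers were read from the same libraries. Of 5 markers of undifferentiated spermatogonia 3 were higher in the 9-month library and 2 lay within 2-fold, with summed levels of 29.3 and 54.0 RPKM. Of 4 leukocyte markers 1 was higher and 1 lower, with summed levels of 237 and 131 RPKM.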
